A study of Mus musculus with 72 samples.

Results

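The genes of fatty acid transport and binding proteins were followed in the epididymal white adipose tissue (eWAT), liver and pituitary of male mice. They are 10 of the 55416 genes counted, and were taken by name as a family of related function, with earlier results of these data known. The 5 cytosolic fatty acid binding proteins are Fabp1 (liver type), Fabp2 (intestinal), Fabp3 (heart), Fabp4 (adipocyte) and Fabp5 (epidermal). The membrane receptor is Cd36, and the 4 fatty acid transport proteins are Slc27a1, Slc27a2, Slc27a4 and Slc27a5. RNA of 24 male FVB.129P2-Pde6b+ Tyrc-ch/AntJ mice, a sighted FVB strain, was sequenced from all 3 tissues, with 6 mice in each of 4 groups. FED mice were born to dams fed ad libitum and CR20 mice to dams given 20% less food from embryonic day 15 to weaning at day 21. At 8 weeks of age the pups of each dam were divided between a diet with 10% fat (CTRL) and one with 45% fat (HFD), which gave FED-CTRL, FED-HFD, CR20-CTRL and CR20-HFD. Feeding then lasted 10 weeks by the published methods, since the labels leave its length open. The dam of a mouse is not given, so mice of a group can share a litter, and p-values here measure the spread between mice. Total counts ranged from 11589675 to 22364963 in eWAT, from 9842813 to 19928212 in the liver and from 18299494 to 27601208 in the pituitary. Levels below are in CPM, which relates counts to library size, here scaled with TMM factors computed within each tissue. The log2FC is the log2 fold change of the edgeR fit, and between tissues that fit used TMM factors over all 72 libraries. CPM thus carry no scaling between tissues, so CPM ranges of different tissues can differ from the log2FC given beside them. A gene passed the test at an adj. p-value under 0.055 and an absolute log2FC of at least 0.58, which are thresholds the study also used.

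Long-chain fatty acids reach cells bound to albumin or freed from lipoproteins at the vessel wall. CD36 and the fatty acid transport proteins speed their uptake, and the transport proteins also have acyl-CoA synthetase activity, which traps the acid inside the cell. The cytosolic binding proteins are small carriers that hold the acids in solution and bring them to lipid droplets, mitochondria, peroxisomes and nuclear receptors of the PPAR family. FABP4, also called aP2, is a classical adipocyte protein, FABP1 is an abundant protein of hepatocyte cytosol, and SLC27A5 activates bile acids in the liver.

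The promoters of Fabp1 and Fabp5 are shown because Fabp1 had the most binding protein counts in the liver, and Fabp5 was the gene that passed the test with diet there. Each runs from 250 bases before to 50 bases after the start of the canonical transcript, 5′ to 3′ on the gene's strand, from the GRCm39 genome with the GENCODE M39 annotation. The Fabp1 window is chr6:71176559-71176858 on the plus strand, and the Fabp5 window chr3:10077352-10077651 on the plus strand. Capitals mark the 6 letters AGGTCA, a site that many nuclear receptors bind, on either strand, and TATAAA.
Fabp1: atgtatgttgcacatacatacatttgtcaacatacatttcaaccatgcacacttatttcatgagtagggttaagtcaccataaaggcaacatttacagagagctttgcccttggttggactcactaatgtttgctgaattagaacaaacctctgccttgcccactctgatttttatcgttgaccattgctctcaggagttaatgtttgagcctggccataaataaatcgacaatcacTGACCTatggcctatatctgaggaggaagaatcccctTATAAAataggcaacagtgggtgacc
Fabp5: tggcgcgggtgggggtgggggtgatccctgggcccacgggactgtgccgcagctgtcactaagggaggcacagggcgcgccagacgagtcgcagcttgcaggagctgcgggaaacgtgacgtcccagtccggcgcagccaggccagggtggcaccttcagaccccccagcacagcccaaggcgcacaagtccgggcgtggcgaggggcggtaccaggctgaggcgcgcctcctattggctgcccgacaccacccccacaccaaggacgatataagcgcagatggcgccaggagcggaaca
In the Fabp1 window AGGTCA lay on the minus strand, where the line above reads TGACCT, at -13 to -8 from the transcript start, and TATAAA at 24 to 29 after it. Neither motif was found in the Fabp5 window. Of 21757 promoters of the same length, 15.1% held AGGTCA and 8.96% TATAAA. Fabp4 and Fabp5 lie near each other on chromosome 3, at chr3:10268785-10273737 and chr3:10077602-10081674. Fabp1 lies at chr6:71176809-71182016, Fabp2 at chr3:122688721-122693155, Fabp3 at chr4:130202388-130209259 and Cd36 at chr5:17986432-18094067. Slc27a1 lies at chr8:72021095-72041866, Slc27a2 at chr2:126394327-126430166, Slc27a4 at chr2:29692598-29710004 and Slc27a5 at chr7:12722273-12732137. Their identifiers in the count table are ENSMUSG00000054422 (Fabp1), ENSMUSG00000023057 (Fabp2), ENSMUSG00000028773 (Fabp3), ENSMUSG00000062515 (Fabp4), ENSMUSG00000027533 (Fabp5), ENSMUSG00000002944 (Cd36), ENSMUSG00000031808 (Slc27a1), ENSMUSG00000027359 (Slc27a2), ENSMUSG00000059316 (Slc27a4) and ENSMUSG00000030382 (Slc27a5).

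The labelled tissues held their own markers. The summed CPM of 10 adipocyte genes was 4514 to 28725 in eWAT, that of 10 hepatocyte genes 79862 to 129146 in the liver and that of 10 anterior pituitary genes 234477 to 411589 in the pituitary, with no gene of a list at 0 in its own tissue. Some libraries stood apart. In the pituitary library of FED-HFD mouse 10, the adipocyte genes summed to 95.5 CPM, against 3.36 to 8.56 in the other 23, and Ucp1, the uncoupling protein of brown fat, was at 107 CPM against at most 0.0455. In the eWAT of CR20-CTRL mouse 5 and FED-HFD mice 10 and 13, the hepatocyte gene Alb was at 96.8 to 512 CPM against 2.20 to 40.9 in the other 21. Ttr and Apoa1 were also above the other 21 there. Not all of the 10 hepatocyte genes went this way. Their highest sum in eWAT, 988 CPM, was in CR20-HFD, where Alb was at most 21.4. Cyp2e1 of that list was higher in CR20-HFD than in FED-HFD eWAT (log2FC 3.28). Adam7, 1 of 8 epididymis genes listed, was at 4.30 to 133 CPM in the eWAT of CR20-CTRL mice 4 and 5 and CR20-HFD mouse 6 and at 0 in the other 21. Crisp1, of the same list, was at 22.1 CPM in CR20-HFD mouse 6 and at 0 in CR20-CTRL mice 4 and 5. The 8 genes together summed to at most 133 CPM in CR20-CTRL, a level that Adam7 alone reached in mouse 4. In the eWAT of FED-HFD mouse 23 the adipocyte genes summed to 4514 CPM and 11 macrophage genes to 14444 CPM, the lowest and the highest of the 24.

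**Figure D1:**
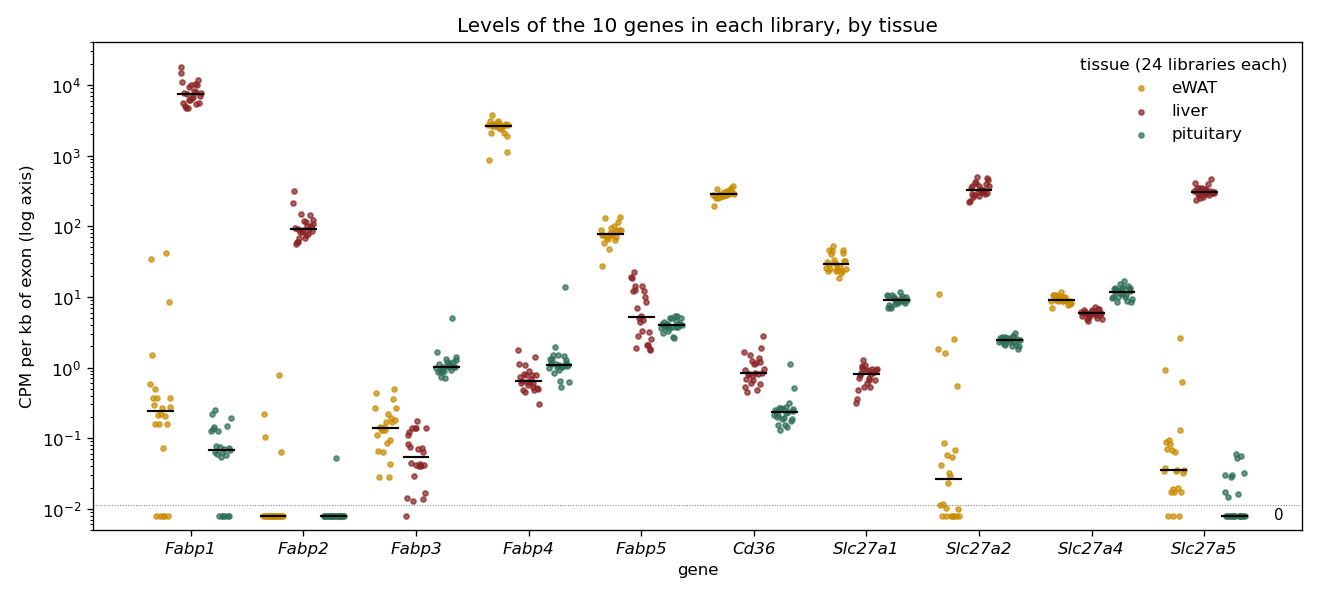
Levels of the 10 genes in CPM per kb of exon on a log axis, with 1 point per library, 24 libraries per tissue, a black line at the median, and values of 0 set at the foot. Fabp4 and Cd36 led in eWAT (medians 2648 and 282), Fabp1 in the liver (7463), and Slc27a4 and Slc27a1 in the pituitary (11.8 and 9.06).

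Each tissue had its own set of carriers. In eWAT, Fabp4 had a median of 97.8% (91.6 to 98.9%) of the counts of the 5 binding proteins, and in the liver Fabp1 had 97.6% (96.4 to 98.6%). In the pituitary Fabp5 had a median of 56.3%, Fabp4 21.3% and Fabp3 21.2%. Among the 4 transport proteins, Slc27a1 had 79.8% and Slc27a4 18.8% in eWAT, while Slc27a2 had 62.2% and Slc27a5 35.6% in the liver. The pituitary divided its transport protein counts between Slc27a1 (47.8%) and Slc27a4 (46.0%). The 10 genes together took a median of 1.74% of an eWAT library, 0.783% of a liver library and 0.0214% of a pituitary library.

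Levels of different genes were set side by side per kb of exon. The length was that of all annotated exons of a gene merged, such as 674 bases for Fabp1, 3667 for Fabp5, 7086 for Slc27a4 and 12624 for Cd36. The transcripts present can be shorter, so the orders of genes below, also that of Fabp5 and Slc27a4, depend on these lengths. In eWAT the order of medians was Fabp4 at 2648 CPM per kb (874 to 3725), Cd36 at 282 (193 to 372), Fabp5 at 77.6 (27.2 to 137), Slc27a1 at 28.9 (18.4 to 53.0) and Slc27a4 at 8.97 (6.88 to 11.6). Of these neighbours, Fabp5 and Slc27a1 overlapped over the 24 libraries and the others did not. In the liver the order was Fabp1 at 7463 CPM per kb (4663 to 17697), Slc27a2 at 327 (218 to 490), Slc27a5 at 304 (236 to 461) and Fabp2 at 91.6 (56.5 to 312). Slc27a2, the very long-chain acyl-CoA synthetase of peroxisomes and endoplasmic reticulum, overlapped with Slc27a5, and Slc27a5 with Fabp2. Liver Slc27a4 followed at 5.87 CPM per kb and Fabp5 at 5.16, and the medians of Cd36, Slc27a1, Fabp4 and Fabp3 were between 0.053 and 0.840. The order of Fabp5 and Slc27a4 in the liver turned with diet, since median Fabp5 was at 9.31 in FED-CTRL and 16.4 in CR20-CTRL against 5.86 and 6.03 for Slc27a4, and at 2.08 in FED-HFD and 4.74 in CR20-HFD against 5.68 and 5.30, all in CPM per kb. In the pituitary, Slc27a4 at 11.8 CPM per kb (8.45 to 17.0) and Slc27a1 at 9.06 (6.88 to 11.7) overlapped, and Fabp5 followed at 3.99 (2.64 to 5.39). The other pituitary medians were 2.45 for Slc27a2, 1.09 for Fabp4, 1.02 for Fabp3 and 0.232 for Cd36.

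The binding proteins differed between tissues as follows, in CPM as the lowest, median and highest library. Fabp4 was at 4328, 13118 and 18447 in eWAT, at 1.52, 3.14 and 8.64 in the liver and at 2.66, 5.42 and 67.2 in the pituitary, and no eWAT library came near those of the other tissues. Its log2FC was 11.00 in eWAT against liver (SE 0.298) and 10.61 against pituitary (SE 0.292), and pituitary against liver gave 0.39 (SE 0.208), with an adj. p-value of 0.0689 in edgeR. Fabp1 was at 3143, 5030 and 11928 CPM in the liver, at a median of 0.165 and at most 28.0 in eWAT, and at most 0.168 in the pituitary. Fabp2, a carrier of enterocytes that the liver also makes, was at 54.5, 88.4 and 301 CPM in the liver. It was at 0 in 20 of 24 eWAT libraries and 23 of 24 pituitary libraries. A library's floor of 3 counts was at most 0.305 CPM in the liver, 0.259 in eWAT and 0.164 in the pituitary, so lower levels could not be seen, and these floors cover counting error only. Fabp5 was at 99.6, 285 and 503 CPM in eWAT, at 6.41, 18.9 and 82.5 in the liver and at 9.68, 14.6 and 19.8 in the pituitary. Fabp5 was 2.95 higher on the log2 scale in eWAT than in the liver (SE 0.134, adj. p-value 3.78e-31) and fell by 1.22 from liver to pituitary (SE 0.129, adj. p-value 1.05e-13), although the ranges of liver and pituitary overlapped. This value pools the diets and uses a scaling over all 72 libraries. In FED-HFD mice all 6 liver levels (6.41 to 11.8 CPM) were below all 6 pituitary levels (13.6 to 19.8 CPM), as scaled within each tissue. With library totals in the fit, the median log2FC of all genes in pituitary against liver moved by 0.59. The order in CPM and that of the fit are therefore on different scales and cannot be set against each other. Fabp3, the carrier of heart and skeletal muscle, was at 3.73, 5.40 and 26.4 CPM in the pituitary, against at most 2.61 in eWAT and 0.916 in the liver.

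Cd36 was at 2442, 3561 and 4690 CPM in eWAT, at 5.65, 10.6 and 34.9 in the liver and at 1.67, 2.93 and 14.1 in the pituitary. Its log2FC was 7.40 in eWAT against liver (SE 0.193) and 9.99 against pituitary (SE 0.215), and its eWAT libraries did not overlap with any other. Slc27a1, the insulin-responsive transporter of fat and muscle, was at 188, 295 and 539 CPM in eWAT, at 70.0, 92.2 and 119 in the pituitary and at 3.18, 8.35 and 12.8 in the liver. The 3 ranges of Slc27a1 did not overlap. Slc27a4, which is expressed widely, was at 48.7, 63.6 and 81.9 CPM in eWAT, at 32.4, 41.6 and 50.8 in the liver and at 59.8, 83.9 and 120 in the pituitary. Slc27a4 did not pass the test in any pair of tissues, with a log2FC of -0.07 in eWAT against liver (SE 0.0624, adj. p-value 0.271), 0.41 in pituitary against liver and -0.48 in eWAT against pituitary, which are below the minimum fold. Slc27a2 was at 1020, 1532 and 2293 CPM in the liver, at 8.56, 11.5 and 14.4 in the pituitary and at a median of 0.122 in eWAT. Slc27a5 was at 672, 865 and 1314 CPM in the liver, with medians of 0.101 in eWAT and 0 in the pituitary.

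Of the 10 genes, 4 were higher and 4 lower in eWAT than in the liver, where 66.1% of 19210 genes passed the test. In pituitary against liver 2 were higher and 6 lower (76.5% of all genes passed), and in eWAT against pituitary 6 were higher and 2 lower (70.3% passed), or 9 in all with the mouse as a block, which adds Fabp2 (log2FC 2.05, adj. p-value 0.00224 in edgeR). The members that passed are thus a share like that of all genes. Fabp2 had at most 9 counts in an eWAT library and 1 in a pituitary library, and its SE without the block was 6011. Its call with the block therefore rests on counts near 0. The RNA of a whole tissue cannot tell fewer cells of a type from less RNA per cell, which holds for every comparison here. With library totals in place of TMM factors, the median log2FC of all genes moved by 0.71 in eWAT against liver, 0.59 in pituitary against liver and 0.14 in eWAT against pituitary, and Slc27a4 then passed in eWAT against liver (0.67) and in pituitary against liver (1.02). With DESeq2's size factors in edgeR it passed in eWAT against pituitary (-0.58), so its order among tissues rests on the scaling. The calls of Fabp1 and Slc27a5 in eWAT against pituitary were lost among FED-CTRL mice alone (adj. p-values 0.0727 and 0.732). That group lacks the 3 eWAT libraries high in Alb, but the fit also has fewer mice, with 6 per tissue. Both genes had at most 4 counts in any eWAT or pituitary library of FED-CTRL mice. The cause of the lost calls was not tested.

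**Figure D2:**
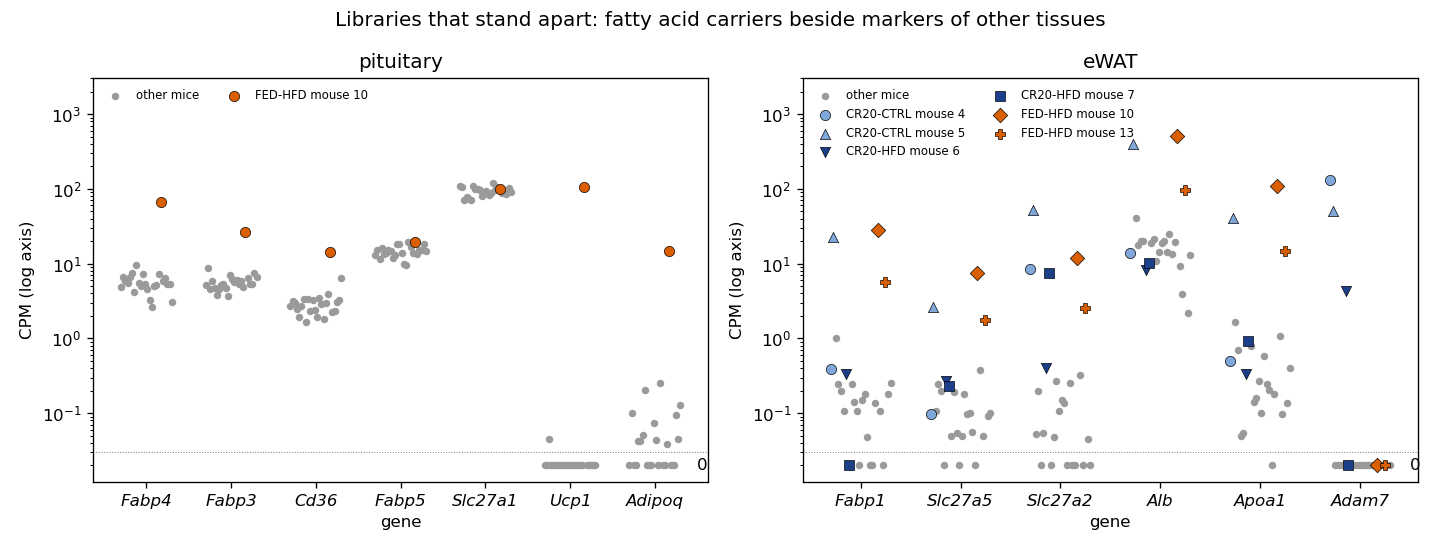
CPM on a log axis in libraries that stand apart (coloured symbols) and the other mice (grey), with values of 0 at the foot. FED-HFD mouse 10 is highest for Fabp4, Fabp3 and Cd36 in the pituitary together with Ucp1 and Adipoq, and 3 eWAT libraries are high in Fabp1 and Slc27a5 together with Alb and Apoa1.

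In eWAT, the low genes were high in a few libraries. Fabp1 was at 22.9 CPM in CR20-CTRL mouse 5, 28.0 in FED-HFD mouse 10 and 5.71 in FED-HFD mouse 13, against at most 1.01 in the other 21. Slc27a5 was at 2.65, 7.41 and 1.76 CPM in the same 3 mice, against at most 0.375 elsewhere. These are the libraries with the high Alb, and the part of hepatocyte RNA in these values was not tested. Slc27a2 was at 51.5 CPM in CR20-CTRL mouse 5, 11.8 in FED-HFD mouse 10, 8.51 in CR20-CTRL mouse 4, 7.49 in CR20-HFD mouse 7 and 2.55 in FED-HFD mouse 13, against at most 0.403 in the other 19. Adam7 was also found in CR20-CTRL mice 4 and 5 and was at 0 in the other 3, while Crisp1, another epididymis gene, was at 0 in all of these mice. None of these 3 genes had enough counts in enough eWAT libraries to be tested between groups.

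The diet comparisons ask how 10 weeks of high fat feeding changed the tissue in offspring of each kind of dam, and the maternal comparisons how maternal restriction changed it on a given diet. In the liver, Fabp5 fell on the high fat diet in the offspring of FED and of CR20 dams alike, and it was 1 of 9 genes tested that passed (Fabp3 was too low to test). Fabp5 was at 11.9, 34.1 and 53.1 CPM in FED-CTRL (lowest, median and highest), and at 6.41, 7.62 and 11.8 in FED-HFD. In CR20-CTRL it was at 43.8, 60.1 and 82.5 CPM, and in CR20-HFD at 7.04, 17.4 and 25.7. All 6 HFD mice were below all 6 CTRL mice in the offspring of either kind of dam, though the FED groups were barely apart, at 11.8 in FED-HFD mouse 12 and 11.9 in FED-CTRL mouse 15. The counts behind these values were 208 to 973 in FED-CTRL, 68 to 163 in FED-HFD, 607 to 1412 in CR20-CTRL and 91 to 457 in CR20-HFD. As log2 CPM, the means were 4.85 ± 0.84, 3.03 ± 0.32, 5.88 ± 0.37 and 3.91 ± 0.68 in these 4 groups (SD, n = 6 each).

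Fabp5 decreased by 1.98 on the log2 scale in FED-HFD compared to FED-CTRL livers (SE 0.319, adj. p-value 0.0119), where 0.109% of 13787 genes passed the test, 0.0798% of them lower. It decreased by 1.89 in CR20-HFD compared to CR20-CTRL (SE 0.313, adj. p-value 0.00296), where 0.522% passed, 0.384% lower. Groups that did not overlap with HFD below were found in 0.457% of genes in the FED comparison and 0.326% in the CR20 comparison. The exact two-sided permutation test, whose p-values are unadjusted here and below, of the mean log2 CPM gave p = 0.00216 in both, which is the smallest p that 6 against 6 mice allow. Averaged over both kinds of dam, Fabp5 decreased by 1.94 (SE 0.224, adj. p-value 1.39e-05), with 1.26% of genes passing, 0.776% lower. The 2 diet responses differed by 0.09 (SE 0.432), between -0.77 and 0.95 at 2 SE.

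Between the offspring of CR20 and FED dams on the same diet, liver Fabp5 did not pass the test. CR20-HFD was 0.98 above FED-HFD (unadjusted p = 0.00465, adj. p-value 1.00 in edgeR, exact permutation p = 0.0238), with 4 of 6 CR20-HFD mice above all FED-HFD mice. CR20-CTRL was 0.89 above FED-CTRL (unadjusted p = 0.00743, adj. p-value 0.999 in edgeR, exact permutation p = 0.0152), with 3 of 6 above all FED-CTRL mice. No gene passed in these comparisons or for the interaction of maternal group and diet (0% of all genes), so 0 of the 9 did. At an unadjusted p under 0.05 in edgeR there were 1, 1 and 0 of the 9, and 493, 299 and 242 of all 13787 genes. Voom and DESeq2 also called 0 of the 9. FABP5 is made by macrophages and epithelial cells, so macrophage genes were set beside it, and their part in the change was not tested. The summed CPM of 11 macrophage genes was 139 to 189 in FED-CTRL livers, 138 to 184 in FED-HFD, 123 to 252 in CR20-CTRL and 130 to 211 in CR20-HFD, and 0 of the 9 with enough counts to be tested passed in any comparison. Adipoq and Plin1, of the 10 adipocyte genes, were at most 0.343 and 0.267 CPM in any liver library, while the 10 together summed to 910 to 3579 CPM. Slc2a4 of that list also decreased with the high fat diet. Its log2FC was -2.97 in CR20-HFD compared to CR20-CTRL livers (adj. p-value 0.00415 in edgeR) and -2.54 averaged over both kinds of dam.

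Fabp5 has a processed pseudogene, Gm6166, with 98.3% identity over 409 aligned bases. Its counts were 12.5 to 22.6% (median 17.7%) of those of Fabp5 in the liver, 15.8 to 19.5% (17.6%) in eWAT and 9.28 to 28.4% (15.5%) in the pituitary. Reads of the gene and its copy cannot be told apart with certainty, so the counts were also summed, and the log2FC was then -1.99 in the FED and -1.93 in the CR20 comparison, with both passing the test.

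**Figure D3:**
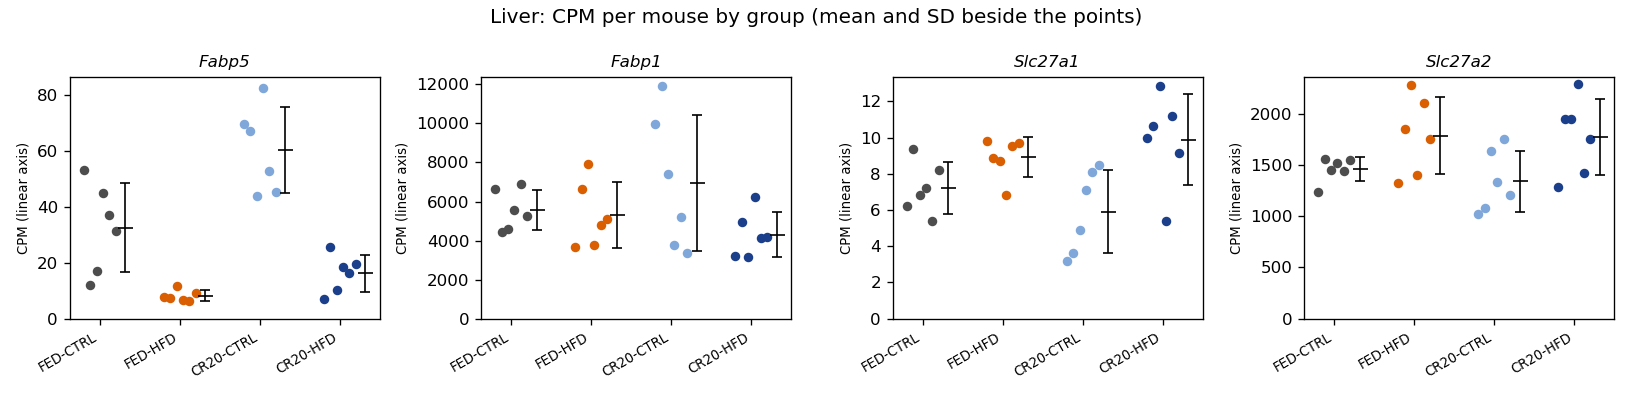
Liver CPM of Fabp5, Fabp1, Slc27a1 and Slc27a2 per mouse on linear axes from 0, with 6 mice per group and bars for the mean and SD. The 6 HFD mice lie below the 6 CTRL mice for Fabp5 in the offspring of FED and of CR20 dams, and the groups overlap for the other 3 genes.

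The abundant liver genes did not pass the test with diet. Fabp1, the main hepatocyte carrier, was at 4452, 5415 and 6902 CPM in FED-CTRL (lowest, median and highest), 3655, 4940 and 7905 in FED-HFD, 3375, 6309 and 11928 in CR20-CTRL and 3143, 4153 and 6229 in CR20-HFD. The CR20 groups overlapped, and their log2FC was -0.69 (SE 0.267, adj. p-value 0.402), against -0.07 in the FED comparison. Slc27a2 was at a median of 1484 CPM in FED-CTRL, 1802 in FED-HFD, 1271 in CR20-CTRL and 1849 in CR20-HFD, with a log2FC of 0.41 in the CR20 comparison (SE 0.163, adj. p-value 0.426) and 0.35 averaged over both (SE 0.115, adj. p-value 0.141). Slc27a5 and Slc27a4 had log2FC between -0.18 and 0.03 in the 2 diet comparisons, and the 2 SE interval of Slc27a5 in the FED comparison was -0.25 to 0.30.

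Slc27a1, at low levels in the liver, was at 3.18, 6.02 and 8.50 CPM in CR20-CTRL and 5.42, 10.3 and 12.8 in CR20-HFD, and these groups overlapped. Its log2FC was 0.73 (SE 0.224, adj. p-value 0.199) in the CR20 comparison and 0.52 averaged over both kinds of dam (SE 0.158, adj. p-value 0.101). Cd36, the membrane receptor, had a log2FC of 0.51 in the FED comparison (SE 0.350) and 0.15 in the CR20 comparison, and FED-HFD spanned 7.33 to 34.9 CPM. Fabp2 was at 301 CPM in the liver of CR20-CTRL mouse 5, the highest of 24, and did not pass in any comparison. Fabp2 shares sequence with the gene 4933405D12Rik, and Fabp3 shares 293 bases with Zcchc17, and the strand setting of the counting is not given in the sources used here, so their reads may be mixed.

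In eWAT, none of the 6 genes tested passed in any comparison of groups in edgeR, while macrophage genes passed in the comparisons with FED-HFD. Fabp4 was at 11786, 12748 and 14069 CPM in FED-CTRL and 5519, 11797 and 13975 in FED-HFD, with a log2FC of -0.21 (2 SE interval -0.69 to 0.26). In CR20-CTRL it was at 4328, 13198 and 18447 CPM and in CR20-HFD at 12836, 13563 and 15330. CR20-CTRL had both the lowest (mouse 5) and the highest level of the 24, and all 4 groups overlapped. Cd36 was at 3458, 3761 and 3990 CPM in FED-CTRL and 3595, 3938 and 4690 in FED-HFD, with a log2FC of 0.11 (2 SE interval -0.10 to 0.32).

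**Figure D4:**
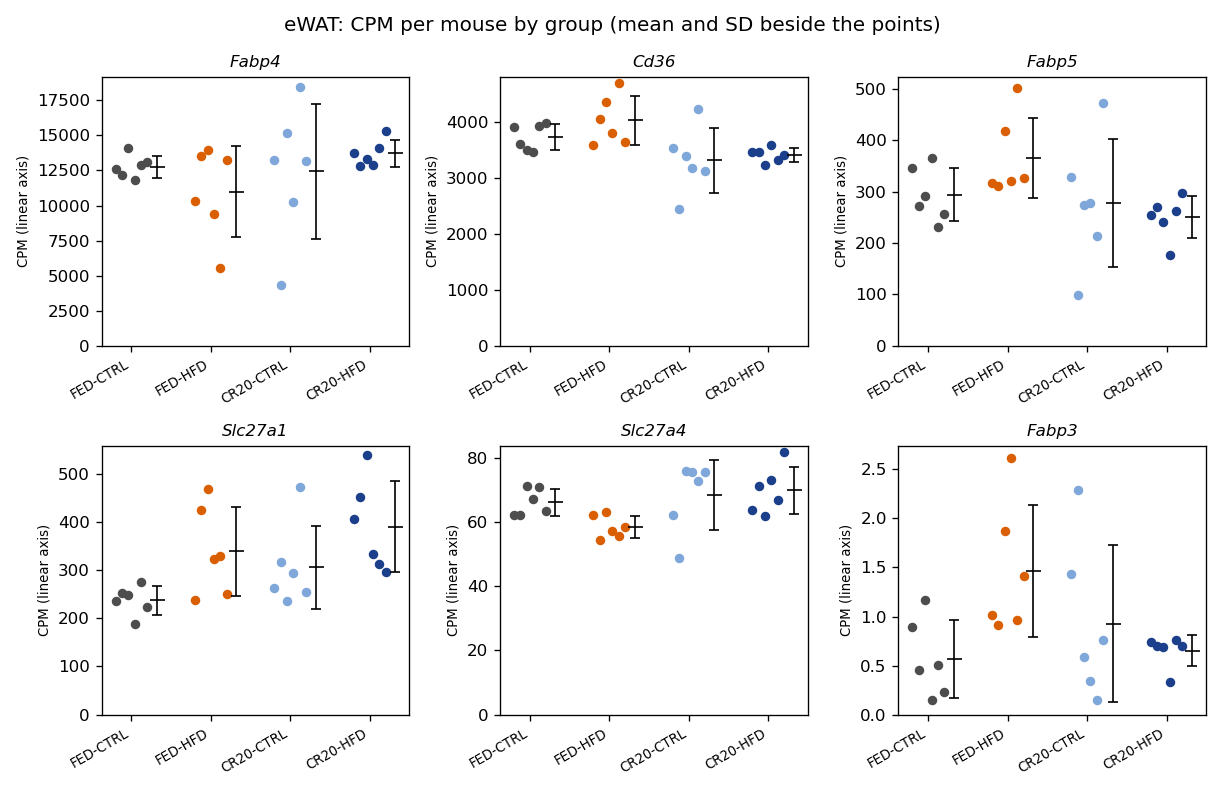
CPM in eWAT of the 6 tested genes per mouse on linear axes from 0, with 6 mice per group and bars for the mean and SD. For Fabp5, Cd36 and Fabp3 the 6 CR20-HFD mice lie below the 6 FED-HFD mice, and none of the 6 genes passed in edgeR in any comparison, while voom and DESeq2 called Fabp3 as the text gives.

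In FED-HFD compared to FED-CTRL eWAT, 0 of 6 genes passed in edgeR, where 8.01% of 15964 genes did. An unadjusted p under 0.05 was found for 2 of 6, Slc27a1 and Fabp3, and for 4106 of the 15964. Slc27a1 was at 188, 242 and 275 CPM in FED-CTRL and 238, 327 and 469 in FED-HFD, with 4 of 6 FED-HFD mice above all FED-CTRL mice. Its log2FC was 0.52 (SE 0.184, adj. p-value 0.0736 in edgeR, exact permutation p = 0.0260). Fabp3 was near its detection limit, at 0.152, 0.479 and 1.17 CPM in FED-CTRL and 0.911, 1.21 and 2.61 in FED-HFD. Its log2FC was 1.36 (SE 0.497, adj. p-value 0.0811), and it passed in voom (1.67, adj. p-value 0.00334) and DESeq2 (1.38, adj. p-value 0.0468), so voom and DESeq2 each called 1 of 6. Of 8 brown adipocyte genes tested, 3 passed in the same comparison, Ucp1 (log2FC 3.80), Dio2 (1.81) and Elovl3 (1.70), while the summed CPM of that list was 46.0 to 62.1 in FED-CTRL and 28.2 to 58.7 in FED-HFD, and their part in Fabp3 was not tested. Fabp5 was at 232, 282 and 366 CPM in FED-CTRL and 312, 323 and 503 in FED-HFD, and the groups overlapped (log2FC 0.32, SE 0.229). Slc27a4 was at 62.2, 65.1 and 71.1 CPM in FED-CTRL and 54.3, 57.9 and 62.9 in FED-HFD, a log2FC of -0.18 (SE 0.0916, unadjusted p = 0.0645 in edgeR, exact permutation p = 0.00866).

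In CR20-HFD compared to FED-HFD eWAT, 0 of 6 genes passed in edgeR, where 9.73% of all genes did. An unadjusted p under 0.05 was found for 4 of 6 and for 4761 of all 15964 genes. Voom called 1 (Fabp3) and DESeq2 called 0. Fabp5 was at 176, 259 and 298 CPM in CR20-HFD, and all 6 mice were below the lowest FED-HFD mouse at 312. Its log2FC was -0.55 (SE 0.230, adj. p-value 0.108 in edgeR, exact permutation p = 0.00216). Cd36 was at 3231, 3437 and 3581 CPM in CR20-HFD, all below the 3595 of the lowest FED-HFD mouse (log2FC -0.24, adj. p-value 0.134 in edgeR, exact permutation p = 0.00216). Fabp3 was at 0.334, 0.697 and 0.756 CPM in CR20-HFD and also lay below all FED-HFD mice (log2FC -1.17, SE 0.498, adj. p-value 0.116). Groups without overlap were seen in 6.66% of all genes in this comparison, 4.17% with CR20-HFD lower. Slc27a4 was at 61.7, 69.1 and 81.9 CPM in CR20-HFD and was the gene with the smallest adj. p-value of the 6 (log2FC 0.26, SE 0.0917, adj. p-value 0.0617 in edgeR, exact permutation p = 0.00649). Slc27a1 was at 296, 370 and 539 CPM in CR20-HFD, with a log2FC of 0.20 against FED-HFD (2 SE interval -0.17 to 0.57).

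Macrophages make FABP4, FABP5 and CD36 and endothelial cells make FABP4 and CD36, so the markers of these cells were set beside them. The summed CPM of 11 macrophage genes was 1348 to 2055 in FED-CTRL, 2350 to 14444 in FED-HFD, 913 to 2235 in CR20-CTRL and 1001 to 1944 in CR20-HFD. Of the 11, 9 rose in FED-HFD compared to FED-CTRL and 10 fell in CR20-HFD compared to FED-HFD. The adipocyte genes summed to 18333 to 23270 CPM in FED-CTRL, 4514 to 18916 in FED-HFD, 8977 to 28725 in CR20-CTRL and 20648 to 24806 in CR20-HFD, and 5 of 10 endothelial genes were higher in CR20-HFD than in FED-HFD. In FED-HFD mouse 23, with the highest macrophage sum, Fabp4 was at 5519 CPM, the lowest of its group, while Fabp5 at 503 and Cd36 at 4690 were the highest of all 24. In CR20-CTRL mouse 5, Fabp4 at 4328 and Fabp5 at 99.6 CPM were the lowest of 24. The part of these cells in the values was not tested. Without FED-HFD mice 10, 13 and 23 and CR20-CTRL mouse 5, a choice made after seeing the data, 0 of 6 passed in each comparison in edgeR.

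The other eWAT comparisons gave 0 of 6. No gene at all passed in CR20-HFD compared to CR20-CTRL or in CR20-CTRL compared to FED-CTRL (0% of all genes), and none of the 6 had an unadjusted p under 0.05 in edgeR. For the interaction, 2.42% of all genes passed, and Fabp3 had a log2FC of -1.85 (SE 0.709, adj. p-value 0.174). It was the 1 gene of 6 with an unadjusted p under 0.05, which 2903 of all 15964 genes had. For the diet averaged over both kinds of dam, 0.175% of genes passed, and Slc27a1 had a log2FC of 0.43 (SE 0.130, adj. p-value 0.111). Slc27a1 was at 236, 278 and 472 CPM in CR20-CTRL, so its log2FC with diet was 0.35 in the offspring of CR20 dams, with a 2 SE interval of -0.02 to 0.71.

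**Figure D5:**
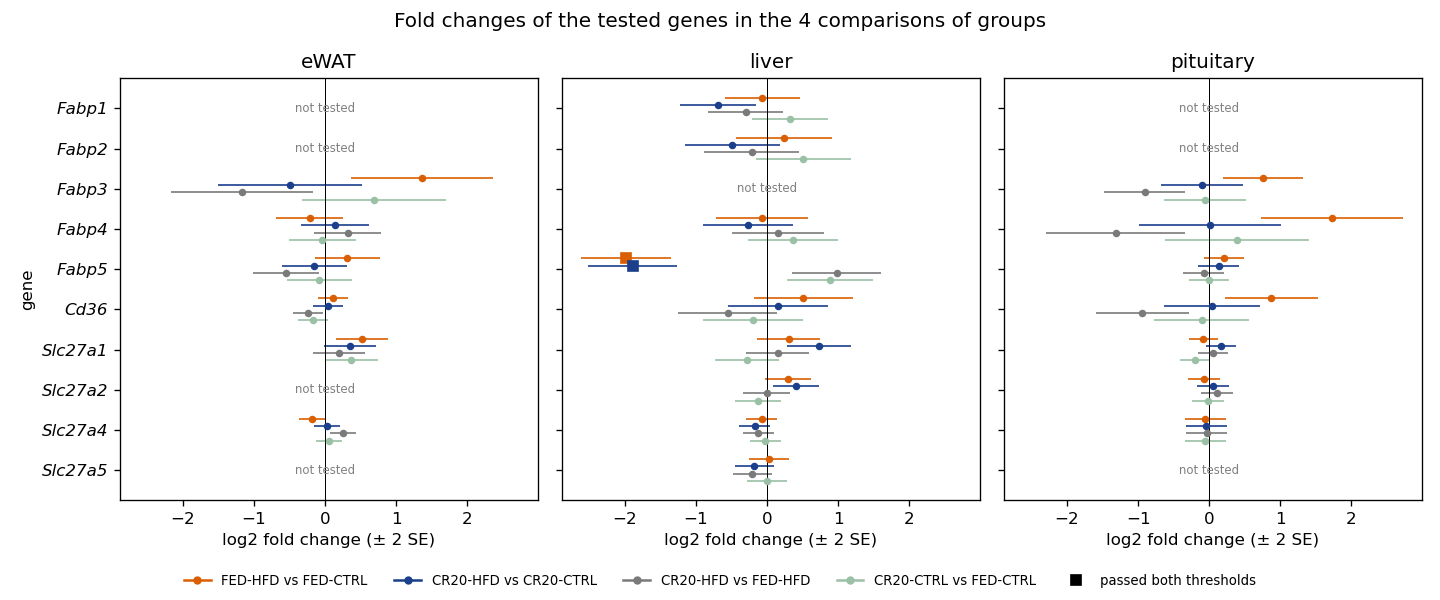
Log2 fold changes of the tested genes in 4 comparisons per tissue, with bars of 2 SE and squares for those that passed both thresholds. The squares are liver Fabp5 in both diet comparisons, at -1.98 and -1.89.

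In the pituitary, none of the 7 genes tested passed in any comparison in edgeR, and the fold changes over 0.58 in size were under that without 1 library. Fabp4 was at 2.66, 4.81 and 7.23 CPM in FED-CTRL and at 3.09, 5.57 and 67.2 in FED-HFD, and the 67.2 was FED-HFD mouse 10, against 2.66 to 9.73 in the other 23. In the same library Fabp3 was at 26.4 CPM against 3.73 to 8.74 elsewhere and Cd36 at 14.1 against 1.67 to 6.44. The adipocyte and brown fat genes of this library are given above, and their part in these values was not tested. Compared to FED-CTRL, the log2FC in FED-HFD was 1.73 for Fabp4 (SE 0.500, adj. p-value 0.235), 0.76 for Fabp3 (adj. p-value 0.364) and 0.88 for Cd36 (adj. p-value 0.358). Without mouse 10 these were 0.15, 0.14 and 0.29. For CR20-HFD compared to FED-HFD the log2FC of Fabp4 was -1.32 with mouse 10 and 0.27 without it, that of Fabp3 -0.91 and -0.29, and that of Cd36 -0.94 and -0.36.

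For the diet averaged over both kinds of dam 0.006% of all pituitary genes passed, and in the other comparisons 0%. Of the 7 members, 3 had an unadjusted p under 0.05 in FED-HFD compared to FED-CTRL, 3 in CR20-HFD compared to FED-HFD, 2 for the interaction, 1 for the average and 0 in the other comparisons, and voom and DESeq2 called 0. Of all 16657 pituitary genes, 1606, 1127, 1833 and 1038 had such a p in the named comparisons, in that order. Slc27a1 and Slc27a4 are the main transporters here. Slc27a1 medians were 94.7, 90.2, 76.2 and 97.5 CPM in FED-CTRL, FED-HFD, CR20-CTRL and CR20-HFD, and Slc27a4 medians 83.0, 87.4, 85.8 and 79.1. Across the 4 comparisons of groups, the log2FC of Slc27a1 was between -0.20 and 0.17 (SE 0.105), and that of Slc27a4 between -0.06 and -0.04 (SE 0.143). Fabp5 medians were between 13.7 and 15.3 CPM in all 4 groups.

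Genes that work next to the carriers were counted in lists of related genes. Of all liver genes, 0.522% passed in CR20-HFD compared to CR20-CTRL, 0.384% lower. In the diet comparison averaged over both kinds of dam 1.26% passed, 0.776% lower. In the liver, 2 of 9 acyl-CoA synthetases tested were lower with the high fat diet in the offspring of CR20 dams, and they were Acsl5, a synthetase of long-chain acids (log2FC -0.70, adj. p-value 0.00792), and Acss2, which activates acetate for lipid synthesis (-1.45, adj. p-value 0.0392). Of 14 regulators, 1 passed in the averaged diet comparison, Srebf1, the transcription factor of lipid synthesis (-1.18, adj. p-value 0.00694). In that comparison Acsl5 (-0.62, adj. p-value 0.000302) and Acss2 (-1.16, adj. p-value 0.00587) also passed. No gene of these lists passed in FED-HFD compared to FED-CTRL livers, and 0% of all liver genes passed for the interaction of maternal group and diet. In eWAT, 8.01% of all genes passed in FED-HFD compared to FED-CTRL and 9.73% in CR20-HFD compared to FED-HFD, and the counts of 1 to 3 genes per list below are to be read against these shares. Of 10 tested genes of a list of other lipid-binding and transport proteins, 2 passed in FED-HFD compared to FED-CTRL, Fabp7, the brain type binding protein (1.79), and the retinol carrier Rbp4 (-1.21). Fabp7 also passed in CR20-HFD compared to FED-HFD (-1.75) together with Slc27a6 (-1.10). Of 10 acyl-CoA synthetases in the same comparison, Acsl4 was lower (-0.61) and Acsm5 (1.25) and Acsm3 (1.53) were higher. Of 13 lipase and lipoprotein genes, Lrp1, an endocytic receptor, was higher in FED-HFD than in FED-CTRL (0.68) and fell in CR20-HFD relative to FED-HFD (-0.65), and Gpihbp1, which anchors lipoprotein lipase to capillaries, was higher in the latter comparison (0.86). Both comparisons share the FED-HFD libraries, and adj. p-values of these eWAT genes were 0.00600 to 0.0518. Cpt1a, which admits fatty acids to mitochondria, was higher in FED-HFD than in FED-CTRL eWAT (0.62), 1 of 9 in its list, and in the pituitary no listed gene passed.

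Across the 24 libraries of the tissue where each gene was highest, the protein-coding genes with the most similar log2 CPM were named with Pearson's r, which has no p here, since libraries share groups, depth and composition. Fabp4 in eWAT was closest to Bckdhb (0.959), Tmem120a (0.948) and Decr1 (0.943), genes of branched amino acid and fatty acid oxidation and of adipocyte differentiation. These r include CR20-CTRL mouse 5 and FED-HFD mouse 23, where Fabp4 was at 4328 and 5519 CPM against a median of 13118. They were not computed without these libraries. Cd36 in eWAT was closest to Lta4h (0.876), and Fabp5 to Npc2 (0.908), a lysosomal cholesterol carrier. In the liver, Fabp1 was closest to Mup20 (0.898), a major urinary protein, Slc27a2 to Eci2 (0.861), an enzyme of peroxisomal fatty acid oxidation, Slc27a5 to Mat1a (0.846) and Fabp2 to Abhd16a (0.963). Slc27a1 in eWAT was closest to Lgals4 (0.764), Slc27a4 in the pituitary to Mapk14 (0.944), and Fabp3 in the pituitary to Plin4 (0.840), a lipid droplet protein. The last r includes FED-HFD mouse 10, the pituitary library with adipocyte genes, and was not computed without it. With group means removed, r was 0.591 for Slc27a1 with Lgals4 and 0.751 with Tbc1d31. Liver Fabp5, chosen after its values were seen, was closest to Tcf24 (0.857), Klk1b4 (0.834) and Pnpla5 (0.813), and with group means removed r was 0.438 for Tcf24.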

How the data were processed

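RNA of eWAT, liver and pituitary from 24 mice gave 72 libraries in 4 groups of 6 mice per tissue. The deposited values are raw counts per Ensembl gene, which the authors made with Trimmomatic, STAR against GRCm39 and featureCounts; tool versions and the strand setting are not given in the sources used here. Labels set the groups. Of 55416 genes, 54749 were named from GENCODE M39. Members and lists were chosen with earlier results of these data known.

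Each tissue was fitted with edgeR 4.0.16 (R 4.3.3; filterByExpr, TMM factors, quasi-likelihood test) on 24 libraries with 4 group means, and tissues on all 72. Adj. p-values are Benjamini-Hochberg values over all genes tested (15964 in eWAT, 13787 in liver, 16657 in pituitary and 19210 between tissues). Single genes were also tested by exact permutation of mean log2 CPM (prior count 2; 924 splits). No 2 libraries of a group had identical counts. All members were described in every tissue. From each list of genes that work next to the carriers, the at most 3 genes with the smallest p among those that passed were named. Genes of the marker lists that passed were named only in part. Not named as passing were, among others, Apoa2, Apoa1 and Ttr in FED-HFD compared to FED-CTRL eWAT and Cyp3a11 in CR20-HFD compared to CR20-CTRL livers. For each member the 3 protein-coding genes with the highest r in the tissue of its highest median were determined. Copies were found with BLAST 2.17.0, and scripts were tested on simulated data. One promoter sequence is not reported here.

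The tissues of a mouse pair by animal. Deviations from group means correlated at medians of 0.0591 (eWAT and liver), 0.0716 (liver and pituitary) and 0.0390 (eWAT and pituitary), over 0.1 in 8, 11 and 3 of 24 mice. Alternatives were limma 3.58.1 voom with quality weights, DESeq2 1.42.0, other scalings, filters, thresholds and covariates, leaving out libraries, a mouse block between tissues and, added after seeing the data, summing Fabp5 with its pseudogene and removing 4 eWAT libraries.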

Additional observations from a re-analysis of the deposited data

Results flagged for a closer look

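Among 107 groups of 6 libraries of 1 gene in 1 tissue, 12 held a library whose gap to its nearest neighbour was over 0.625 of the group's range on the log2 CPM scale, where chance gives about 1 in 20, or 5.3. In the pituitary of FED-HFD mouse 10, Fabp4 was at 67.2 CPM and Fabp3 at 26.4 CPM, and Slc27a2 was at 9.79 CPM in CR20-HFD mouse 6, the lowest of its group. In eWAT, Fabp1 was at 22.9 CPM and Slc27a5 at 2.65 CPM in CR20-CTRL mouse 5, Fabp2 at 0.758 CPM in FED-HFD mouse 10 and Slc27a2 at 7.49 CPM in CR20-HFD mouse 7. Fabp3 in the eWAT of CR20-HFD mouse 32 was at 0.334 CPM, below the 0.692 to 0.756 of the other 5 mice.

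In the liver, Fabp3 was at 0.916 CPM in FED-CTRL mouse 15, against 0.213 to 0.371 in the others. Slc27a1 was at 6.84 CPM in FED-HFD mouse 13, the lowest of its group, against 8.69 to 9.81. Slc27a2 was at 1237 CPM in FED-CTRL mouse 14, against 1442 to 1558, and Slc27a5 at 1314 CPM in FED-HFD mouse 11, against 830 to 889. None of the 10 genes, where tested, had an interaction of maternal group and diet that passed in edgeR with the low-count filter, or opposite responses without overlap.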

How the results depend on the processing

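The decrease of liver Fabp5 passed the test in both diet comparisons under every alternative run, including each library left out. Its log2FC was -2.15 to -1.67 in the FED comparison, with an adj. p-value of up to 0.0479 in edgeR without FED-HFD mouse 23, and -2.08 to -1.75 in the CR20 comparison, with up to 0.0139. Its interaction turned from 0.09 to -0.34 in voom, and to -0.10, -0.12 and -0.03 without CR20-HFD mouse 7, FED-CTRL mouse 14 and FED-CTRL mouse 24 (range with each library left out -0.12 to 0.25), and did not pass in any of these. In eWAT, the count of genes that passed in FED-HFD compared to FED-CTRL went from 0 to 1 (Fabp3) in DESeq2, in voom and in the fit with a covariate for the range of animal numbers, and to 2 with no filter (Fabp1 and Slc27a5). With each library left out it was 0 to 1, the 1 being Fabp3 without FED-CTRL mouse 16 (adj. p-value 0.0494) and Slc27a1 without FED-HFD mouse 10 or 40 (0.0375 and 0.0406). In CR20-HFD compared to FED-HFD eWAT it was 1 in voom and with only the groups compared (Fabp3) and 1 with no filter (Fabp1), and for the eWAT interaction 1 with no filter (Fabp1). In the pituitary 1 gene, Fabp4, passed with no filter in FED-HFD compared to FED-CTRL, and its log2FC in CR20-HFD compared to FED-HFD turned to 0.27 without FED-HFD mouse 10 (range with each library left out -1.53 to 0.27). Between tissues, among FED-CTRL mice alone Fabp3 in eWAT against liver turned to -0.14, Fabp4 in pituitary against liver to -0.17 and Fabp2 in eWAT against pituitary to -1.08, and Slc27a4 in eWAT against liver turned to 0.67 with library totals. The cause of these changes was not tested. With the replicate block by mouse, Fabp2 in eWAT against pituitary passed (log2FC 2.05, adj. p-value 0.00224), on counts near 0 in both tissues, and no other call changed. DESeq2 gave no p-value for pituitary Fabp4. At under 45 counts per library, Fabp3 in eWAT is limited by depth.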
